A study of Mus musculus with 10 samples.

Results

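The genes described here encode the subunits of the mitochondrial respiratory chain. They were chosen by symbol, as genes that start with Nduf, Uqcr, Atp5, Cox4, Cox5, Cox6, Cox7 or Cox8, together with Sdha, Sdhb, Sdhc and Sdhd. Of 18194 genes with a probe set of their own on the array, 90 met this rule, with 179 probe sets among them. By symbol they fell into 36 genes of complex I, 8 complex I assembly factors, 4 genes of complex II, 8 of complex III, 17 of complex IV and 17 of complex V. Ndufa4, now known as a subunit of complex IV, and its relative Ndufa4l2 are thus counted with complex I. Another 10 probe sets that carry the symbols of several genes, among them those shared by Ndufb4 and its copies and by Ndufs6 and Ndufs6b, were left out.

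Gene expression was measured on 10 Affymetrix mouse arrays with RNA of cultured primary keratinocytes, the main cell type of the epidermis, from newborn mice. The paper names wild type FVB mice and, for A-C/EBP, transgenic mice whose strain it does not state. The 4 conditions were undifferentiated cells in low calcium (2 arrays), cells differentiated with calcium for 2 days (4 arrays), differentiated cells expressing A-C/EBP (2 arrays) and differentiated cells treated with 5-AZA (2 arrays). A-C/EBP is a dominant negative that keeps C/EBP transcription factors from DNA, and it came from a transgene under tetracycline control that was switched on by removing doxycycline from the cultures. The sources used here do not say whether the differentiated control cells carried the transgene or had received doxycycline. 5-AZA (5-azacytidine) is a nucleoside that lowers DNA methylation in dividing cells. Nothing in the labels says that the arrays of a condition came from separate animals or cultures, so a p-value covers just the scatter of these 10 samples, part of which may be technical.

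The respiratory chain passes electrons from NADH through complex I, or from succinate through complex II, to complex III and on to oxygen at complex IV. Complexes I, III and IV pump protons out of the mitochondrial matrix, and complex V, the ATP synthase, uses their return to make ATP. Most subunits are encoded in the nucleus and a few in mitochondrial DNA, and several complex IV subunits have a second gene that is used mainly in muscle, lung or testis. Keratinocytes that leave the basal layer stop dividing, build the cornified envelope and later lose their mitochondria.

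Promoters of respiratory chain genes are a classical place to find sites of nuclear respiratory factor 1 (NRF1) and of the ETS factor GABP. The RefSeq promoter windows of GRCm38.p6, which run from 250 bases before to 50 bases after a listed start of a gene, were available for 74 of the 90 members. They were searched on both strands for GCATGCGC (the core of the NRF1 site), CCGGAAGT (ETS factors), TGACGTCA (CREB), TGACTCA (AP-1) and TTGCGCAA (C/EBP). The core of the NRF1 site stood in the windows of 11 members, or 14.9%, against 3.0% of the 27025 genes with a window. The ETS motif stood in 6.8% of the members and 4.3% of all genes, the AP-1 motif in 8.1% and 5.9%, and the CREB motif in 4.1% and 2.0%. No member window held the C/EBP motif, which 0.2% of all genes had. A match is only a run of letters and says nothing about binding.

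Of the 9 members that passed the test between undifferentiated and differentiated cells, 3 had a match to 1 of these motifs in the window and 6 had none. The windows of all 3 are shown, with 1 of the 6 (Sdhd) beside them. Ndufaf4 and Sdhd fell, Ndufa6 and Ndufa13 rose, and capitals mark the motifs named above. The Ndufaf4 window lies at chr4:24897833-24898132 on the plus strand and holds the NRF1 core 3 times, where the first 2 matches are the motif and its reverse complement in the same stretch. The window of Ndufa6, at chr15:82354242-82354541 on the minus strand, has 1 match. The window of Ndufa13, at chr8:69901971-69902270 on the minus strand, has 1 AP-1 match. The annotated Ndufa13 gene reaches further upstream, to 69902558, so this window lies wholly inside it. It overlaps the window of Tssk6 on the opposite strand, and that of Ndufaf4 overlaps the window of Gm46848. The window of Sdhd, at chr9:50603800-50604099 on the minus strand, has none, and it overlaps the start of Timm8b, which is read in the opposite direction.
Ndufaf4: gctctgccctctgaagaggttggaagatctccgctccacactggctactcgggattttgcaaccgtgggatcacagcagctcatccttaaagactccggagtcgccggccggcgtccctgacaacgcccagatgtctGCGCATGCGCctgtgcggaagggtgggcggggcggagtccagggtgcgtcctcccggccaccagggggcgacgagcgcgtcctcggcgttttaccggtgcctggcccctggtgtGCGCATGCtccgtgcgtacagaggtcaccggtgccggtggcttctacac
Ndufa6: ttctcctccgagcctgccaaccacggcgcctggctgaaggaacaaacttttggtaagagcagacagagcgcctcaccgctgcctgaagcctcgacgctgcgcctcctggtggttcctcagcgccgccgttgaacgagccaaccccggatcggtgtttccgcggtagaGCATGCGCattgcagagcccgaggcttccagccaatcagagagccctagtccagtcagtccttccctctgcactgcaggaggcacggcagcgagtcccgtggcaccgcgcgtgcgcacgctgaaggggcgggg
Ndufa13: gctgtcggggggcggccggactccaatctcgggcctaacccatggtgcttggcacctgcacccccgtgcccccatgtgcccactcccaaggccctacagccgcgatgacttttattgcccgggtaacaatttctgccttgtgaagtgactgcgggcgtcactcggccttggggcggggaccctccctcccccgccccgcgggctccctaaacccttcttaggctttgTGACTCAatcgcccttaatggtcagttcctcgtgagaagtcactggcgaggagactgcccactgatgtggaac
Sdhd: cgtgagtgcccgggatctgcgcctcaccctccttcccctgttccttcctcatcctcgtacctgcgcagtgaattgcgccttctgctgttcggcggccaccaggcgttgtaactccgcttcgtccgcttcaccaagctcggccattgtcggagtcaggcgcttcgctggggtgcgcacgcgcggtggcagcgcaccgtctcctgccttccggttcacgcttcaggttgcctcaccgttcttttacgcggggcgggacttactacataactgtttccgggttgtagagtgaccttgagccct

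The values are log2 signals made by RMA, and a difference of 1 is a 2-fold change. Rose and fell are used only of genes whose limma p, adjusted over all 18194 genes, was under 0.05. In bulk RNA, fewer cells of a type and less RNA per cell cannot be told apart. The 9 keratinocyte markers had mean signals of 9.58 to 11.1 on all arrays, and a median difference of -1.29 in differentiation. Of these, 5 fell (Col17a1, Trp63, Itga6, Itgb4 and Krt5, which mark the basal layer). The other 4 did not pass. The basal keratin Krt14 was at -0.05 and Dsp at 0.0, while the differentiation keratins Krt1 and Krt10 were at -1.29 and -1.21. With A-C/EBP all 9 were above the differentiated mean, with a median of 0.53, and none passed. The list means of fibroblasts (4.84 to 5.93), immune cells (4.86 to 5.06), endothelium (3.92 to 4.09), muscle (4.52 to 4.82) and fat (4.36 to 5.43) were low. That of melanocytes was at 7.93 to 8.72. Single genes of the low lists were higher and uneven between arrays, such as Col1a1 (6.19 to 8.36), Col6a1 (5.73 to 8.38), Acta1 (8.19 to 10.9) and Cidea (5.69 to 10.97). In the fat list Cidea alone rose in differentiation, by 3.85. With 5-AZA all 7 melanocyte markers were above the differentiated mean, with a median of 0.39, and none passed. Their part in the results below was not tested.

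Upon calcium differentiation most respiratory chain genes differed little, and the median of each complex lay between -0.21 and 0.08 on the log2 scale. Of the 90 members 7 rose and 2 fell, where 6.64% of all genes rose and 9.13% fell. The members' median log2 difference was 0.00, beside -0.01 over all genes, and 45 members lay above 0 (48.0% of all genes) and 45 below. The 95% interval of the difference lay wholly within 0.5 in either direction for 54 members (60.0%, against 58.1% of all genes). It lay within 1 for 86 of the 90 (95.6%, against 87.5%). By size alone, with no test, 6 members were higher by more than 0.5 (7.23% of all genes) and 2 were lower (8.87% of all genes). In 21 members every differentiated array lay above both undifferentiated arrays (15.1% of all genes), and in 14 every one lay below (19.0% of all genes). Read against the background, the count of rises depended on the scaling and on the arrays used. In the values as deposited 7.8% of the members rose. The share was 13.3% with each array centred on its median (7.9% of all genes) and 15.6% after a second quantile normalization (8.6% of all genes). With differentiated arrays 1 and 2 only, 0 members rose (4.2% of all genes). The share of members that fell was 1.1% to 5.6% over all settings, and no test was made of these shares.

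**Figure D1:**
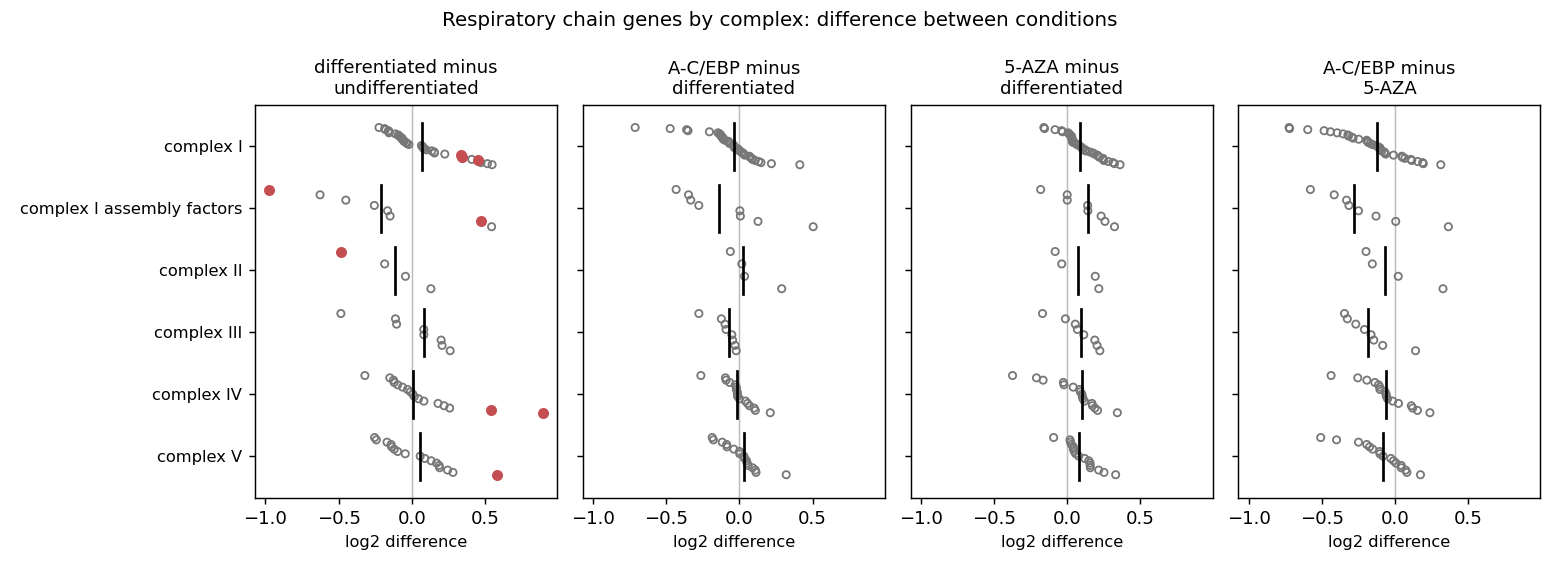
Log2 difference of each of the 90 members, by complex, in 4 comparisons. Each circle is a gene, filled where the limma adjusted p was under 0.05, and the black bar is the median of the complex. The 9 filled circles are all in the first panel, where the medians lie between -0.21 (complex I assembly factors) and 0.08 (complex III).

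The clearest change was a fall of Ndufaf4, a factor needed to assemble complex I. Its log2 signal was 8.48 and 8.49 in the undifferentiated arrays and 7.62, 7.46, 7.58 and 7.37 in the differentiated ones. All differentiated arrays lay far below both undifferentiated ones. It fell by 0.98 on the log2 scale (SE 0.10, adjusted p = 0.000217 by limma), a 1.97-fold change. Both of its probe sets went the same way, with differences of -0.90 and -1.06. Ndufaf4 passed in each of 22 alternative settings, with differences of -1.01 to -0.90.

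Ndufaf3, which works as a partner of Ndufaf4 in the same assembly step, moved the other way. Its log2 signal was 7.89 and 7.60 before differentiation and 8.26, 8.04, 8.28 and 8.28 after it. The groups did not overlap, and the difference was 0.47 (SE 0.12, adjusted p = 0.0235 by limma), which passed in 17 of 22 alternative settings. Of the other 6 assembly factors none passed the test. Ndufaf6 was at 7.52 and 6.998 in undifferentiated and at 6.56, 6.20, 7.09 and 6.67 in differentiated cells, so that its groups overlapped (difference -0.63, limma adjusted p = 0.0975). The difference was 0.55 for Ndufaf1 (limma adjusted p = 0.0732) and -0.45 for Ndufaf5 (limma adjusted p = 0.219). The 8 assembly factors had a median of -0.21, with 2 above 0 and 6 below, and their differences ran from -0.98 to 0.55.

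Among the 36 complex I genes 3 rose (8.3%, against 6.64% of all genes) and none fell (9.13% of all genes). All 3 encode accessory subunits, which surround the catalytic core, but 30 of the 36 are genes other than core subunits. Ndufa6, a small subunit of the LYR motif family, was at 9.67 and 9.53 in undifferentiated cells and at 10.03, 9.93, 10.27 and 9.995 in differentiated cells. Every differentiated array was above both others, and the difference was 0.45 (SE 0.11, adjusted p = 0.0186 by limma), with a pass in 19 of 22 alternative settings. Ndufa13, also known as GRIM-19, was at 11.45 and 11.48 before and at 11.85, 11.69, 11.82 and 11.83 after differentiation. It rose by 0.34 (SE 0.09, adjusted p = 0.0258 by limma), a call that held in 11 of 22 alternative settings. Ndufv3, a subunit of the flavoprotein part, was at 9.13 and 9.33 in undifferentiated cells and at 9.53, 9.61, 9.56 and 9.60 in differentiated cells. It rose by 0.35 (SE 0.10, adjusted p = 0.0335 by limma), a call that held in 10 of the 22.

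None of the core subunits of complex I passed, most of which bind the flavin or iron-sulphur clusters. The 6 among the members, Ndufs1, Ndufs3, Ndufs7, Ndufs8, Ndufv1 and Ndufv2, had differences of -0.22 to -0.04, all below 0, and a median of -0.09. ND5, a core subunit from mitochondrial DNA and outside the rule, was at 0.12 (interval -0.795 to 1.03). The 30 other genes counted with complex I had a median of 0.09, with 19 above 0 and 11 below. They include Ndufa4 (-0.16) and Ndufa4l2 (0.55). This split was made after the values were seen, and it was not tested. Several more accessory subunits were close to the threshold: the difference was 0.41 for Ndufb3 (limma adjusted p = 0.0517), 0.46 for Ndufa1 (0.064) and 0.35 for Ndufa2 (0.0814). Ndufa3 was at 0.52 as an average (limma adjusted p = 0.101). Its bright probe sets (mean signals 11.7 and 11.8) were at 0.33 and 0.34, and its dimmer one (5.49) was at 0.89. On the brightest probe set alone, the limma adjusted p of Ndufa3 was 0.205. The signals of Ndufb3 were 10.17 and 10.01 before and 10.47, 10.38, 10.74 and 10.41 after differentiation, without overlap.

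Complex II, succinate dehydrogenase, is also an enzyme of the tricarboxylic acid cycle and is the one complex with no subunit from mitochondrial DNA. Sdhd, one of its membrane anchors, was at 8.68 and 8.66 in undifferentiated cells and at 8.26, 8.14, 8.34 and 8.03 in differentiated cells. The groups did not overlap, and it fell by 0.48 (SE 0.11, adjusted p = 0.011 by limma). Its probe sets gave differences of -0.39 for the brighter and -0.58 for the dimmer one, and the brighter one alone did not pass. Over all alternatives Sdhd passed in 17 of 22. The other anchor, Sdhc, was at 9.42 and 9.20 before and at 9.23, 8.79, 9.35 and 9.14 after (difference -0.18, limma adjusted p = 0.56). The catalytic subunits did not pass either, with differences of -0.04 for Sdha (limma adjusted p = 0.901) and 0.13 for Sdhb (limma adjusted p = 0.451). The intervals were -0.28 to 0.19 for Sdha and -0.07 to 0.33 for Sdhb.

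None of the 8 complex III genes passed, where 6.64% of all genes rose and 9.13% fell. Uqcrc1, a core protein of the complex, had the lowest value, with signals of 11.56 and 11.37 in undifferentiated and 11.01, 10.85, 10.99 and 11.06 in differentiated cells. These groups did not overlap, but the difference of -0.48 did not pass (SE 0.17, limma adjusted p = 0.0882). The other 7 had differences of -0.11 to 0.26, and the Rieske protein gene Uqcrfs1 was at 0.20.

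In complex IV, cytochrome c oxidase, 2 of 17 genes rose (11.8%, against 6.64% of all genes). Cox7a2l, a relative of Cox7a2 that links complexes III and IV in supercomplexes, was at 10.64 and 10.57 in undifferentiated cells and at 11.08, 10.90, 11.37 and 11.24 in differentiated cells. It rose by 0.54 (SE 0.13, adjusted p = 0.0148 by limma), with no overlap, and its 3 probe sets gave 0.52, 0.54 and 0.56. It passed in 19 of 22 alternative settings. Cox7a1, the form of heart and skeletal muscle, was at 3.51 and 3.17 before and at 4.15, 3.94, 4.44 and 4.44 after differentiation. The test was passed (difference 0.90, SE 0.24, adjusted p = 0.0263 by limma), but the only probe set lay below the array's median probe set on all 10 arrays, so its signal was not shown to exceed background. It passed in 15 of 21 alternative settings. Of the 13 muscle markers, 2 rose in the same comparison, namely Acta1 by 1.82 and Mylpf by 1.17, and 6 lay below the median probe set on all arrays. Their part in the Cox7a1 value was not tested.

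The other complex IV isoforms did not pass the test. Cox4i1, the general form of subunit IV, was at 12.44 and 12.38 in undifferentiated cells and at 12.38, 12.20, 12.66 and 12.47 in differentiated cells (difference 0.02, interval -0.27 to 0.31). Its lung form Cox4i2 lay below the median probe set on 5 of 10 arrays. The differences were 0.22 for Cox6a1 and -0.10 for the muscle form Cox6a2, and 0.26 for Cox6b1 and 0.05 for the testis form Cox6b2. Cox7a2 had a difference of 0.08, and Cox7b2 lay below the median probe set on all 10 arrays. The general form Cox8a had -0.03, Cox8b had -0.12 with 8 of 10 arrays below the median probe set, and Cox8c had -0.06. The smallest limma adjusted p among them was 0.243, for Cox6b1. The averaged signal of Cox7c was below the median probe set on 8 of 10 arrays, and that of Ndufb4, a complex I gene, on all 10, so these signals were not shown to exceed background.

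In complex V, 1 of 17 genes rose (5.9%, against 6.64% of all genes). Atp5e, the epsilon subunit in the rotor of the ATP synthase, was at 10.62 and 10.72 in undifferentiated cells and at 11.14, 11.20, 11.49 and 11.17 in differentiated cells. The groups were well apart, and the difference was 0.58 (SE 0.16, adjusted p = 0.0327 by limma), with a pass in 14 of 22 alternative settings. The genes of the catalytic subunits, Atp5a1 and Atp5b, had differences of -0.24 and -0.25, and neither passed. The other 14 lay between -0.17 and 0.28.

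Averaging per gene hides some disagreement between probe sets. Of the 51 members with several probe sets, 20 had probe sets with differences on both sides of 0 in differentiation, and 9 had a probe set above the array's median on all arrays beside 1 or more that lay below it on all arrays. Uqcrq, a small subunit of complex III, was at 0.08 as an average, but its bright probe set (mean signal 11.9) was at 0.34 and its 3 others (mean signals 4.31 to 5.07) were between -0.08 and 0.11. The 5 probe sets of Ndufa7, an accessory complex I subunit, all had mean signals of 10.02 to 11.4 and gave differences of -0.03 to 0.69. Atp5g1, which encodes subunit c of the ATP synthase ring, was at -0.10 as an average and at -0.28 on its bright probe set. These 3 genes were chosen after their values were seen.

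**Figure D2:**
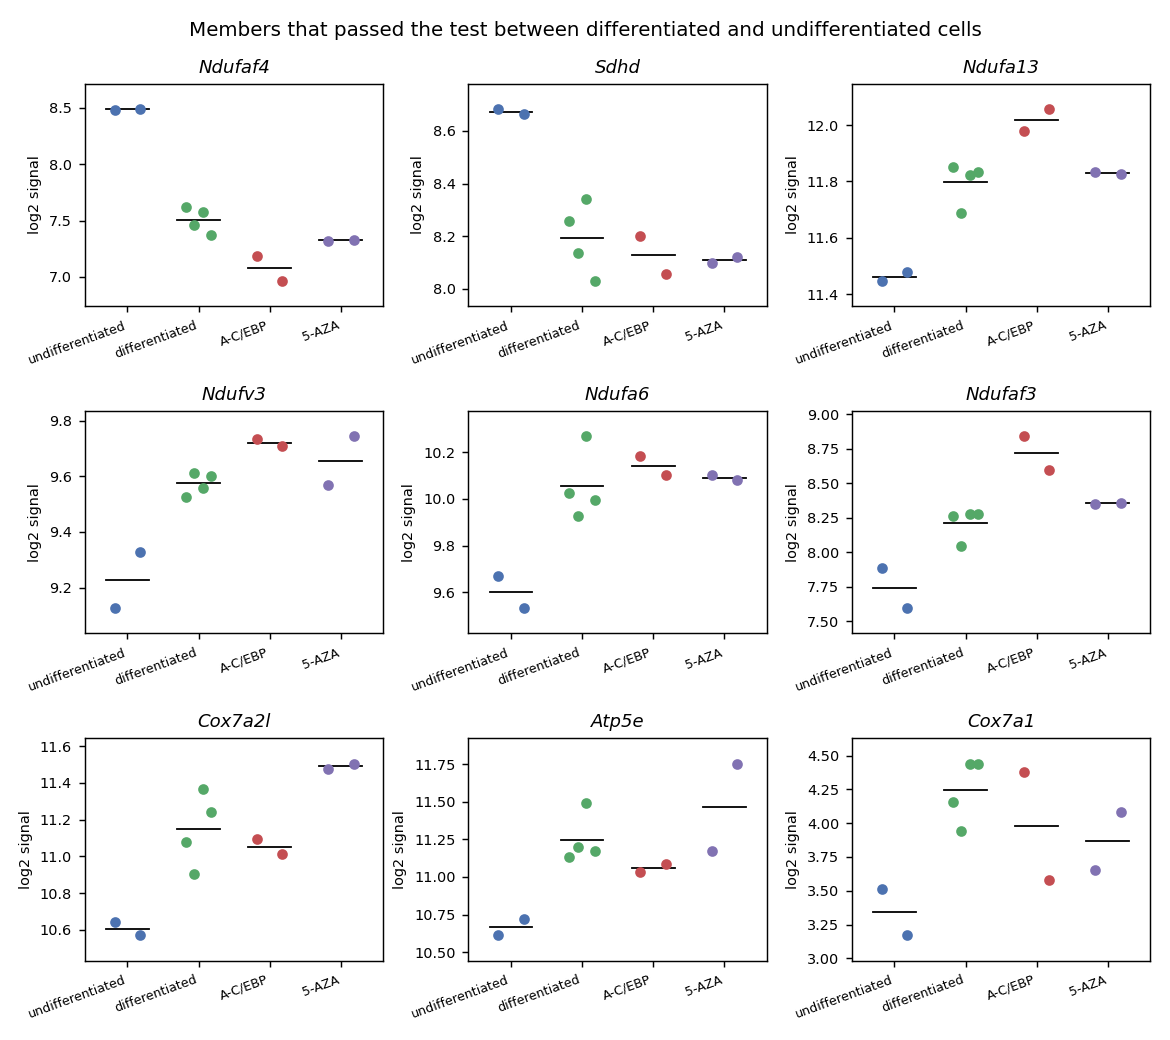
Log2 signal of the 9 members that passed between differentiated and undifferentiated cells, one panel per gene with its own axis that does not start at 0. Points are arrays (2, 4, 2 and 2 per condition) and bars are means. In each panel all 4 differentiated arrays lie on the same side of both undifferentiated arrays.

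The calls rest on few arrays. Leaving out either undifferentiated array leaves 1 array in that group. Then fewer members passed, as did fewer of all genes, and the share that rose dropped more among the members than over all genes. Without differentiated array 3, 2 members rose and 4 fell (5.9% and 8.5% of all genes). Without array 4 the counts were 2 and 2 (5.4% and 7.9% of all genes), and without array 1 they were 4 and 2 (5.5% and 8.2%). Without array 2 they were 9 and 2 (8.0% and 7.9% of all genes). Differentiated array 3 was the highest of the 4 in 61 of the 90 members (67.8%), where it was the highest in 38.3% of all genes and in 80.4% of 46 cytosolic ribosomal protein genes, a set looked at after the shift was seen. The members' median deviation from their mean over the 4 arrays was 0.14 on it and -0.12 on differentiated array 2. Array 3 also had the lowest signal of the 18S ribosomal RNA control, 6.01 against 9.20 to 14.2 on the other arrays, and array 2 the lowest maximum, 13.7 against 14.4 to 14.6. The part of these in the results was not tested.

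**Figure D3:**
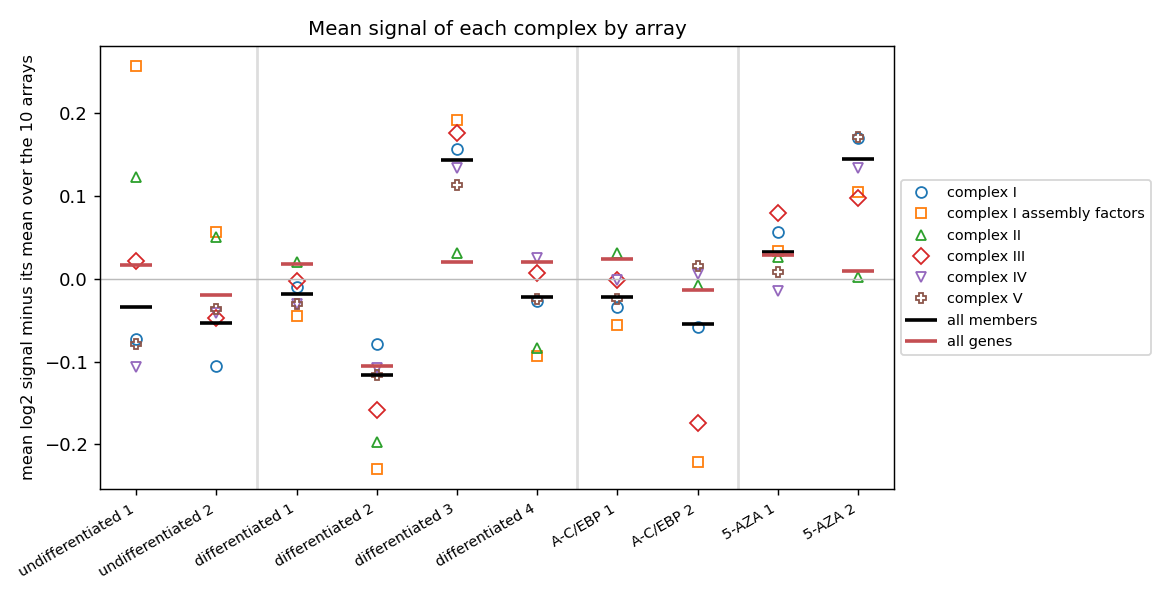
Mean log2 signal of the members of each complex on each array, minus its mean over the 10 arrays. Open symbols are complexes, black bars are all 90 members and red bars all 18194 genes. The members sit highest on differentiated array 3 and 5-AZA array 2, while the red bars there stay close to 0.

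The next comparison asked how the genes responded when C/EBP factors were blocked in differentiating cells. No member passed between A-C/EBP and differentiated cells, where 1.49% of all genes rose and 0.583% fell. Without adjustment 10 of the 90 had a p under 0.05 (11.1%, against 13.6% of all genes). The members' median was -0.02, beside 0.01 over all genes. Of the members 37 lay above 0 (41.1%, against 52.7% of all genes) and 53 below. The intervals were within 0.5 in either direction for 70 members (77.8%, against 66.0% of all genes) and within 1 for 89 (98.9%, against 94.0%). By size alone 1 member was higher by more than 0.5 (3.7% of all genes) and 1 lower (3.03% of all genes). Both A-C/EBP arrays lay above all differentiated arrays in 6 members (12.6% of all genes) and below them in 7 (8.81% of all genes).

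The assembly factors Ndufaf3 and Ndufaf4 had the smallest p of the members here. Ndufaf3 was at 8.84 and 8.60 with A-C/EBP, above all 4 differentiated arrays (difference 0.50, SE 0.12, limma adjusted p = 0.0686). Ndufaf4 was at 7.18 and 6.97, below all 4 (difference -0.43, SE 0.10, limma adjusted p = 0.0687). The same differentiated arrays enter this comparison and the one on differentiation. Ndufaf3 passed in 3 of 22 alternative settings and Ndufaf4 in 1.

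Ndufa4, named for complex I but now known as a subunit of complex IV, was at 12.29 and 12.51 with A-C/EBP and at 12.06, 11.95, 12.11 and 11.84 in differentiated cells. The groups did not overlap (difference 0.41, SE 0.11, limma adjusted p = 0.0962). Its relative Ndufa4l2, which is induced by hypoxia in other cells, went the other way, at 6.87 and 6.12 with A-C/EBP and at 6.95, 7.23, 7.27 and 7.40 without it. The A-C/EBP arrays differed widely from each other (difference -0.71, SE 0.20, limma adjusted p = 0.111), and the value was -1.09 without A-C/EBP array 1 and -0.34 without array 2. The gene passed in 1 of 22 alternative settings, the one without array 1, where a single A-C/EBP array is assumed to vary like the other groups. In differentiation Ndufa4l2 was higher by 0.55 (limma adjusted p = 0.0948), with 6.69 and 6.63 in undifferentiated cells and no overlap.

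Ndufs5, an accessory complex I subunit, was at 8.11 and 8.01 with A-C/EBP and at 8.31, 8.45, 8.73 and 8.65 in differentiated cells, again without overlap (difference -0.47, SE 0.14, limma adjusted p = 0.141). Sdha, the flavoprotein of complex II, was at 6.61 and 6.76 with A-C/EBP and at 6.55, 6.31, 6.29 and 6.46 without it (difference 0.29, limma adjusted p = 0.242). Its 4 probe sets gave different answers. Those with a mean signal of 9.56 and 9.29 had differences of 0.32 and 0.54, and those at 3.37 and 3.62, below the median probe set on all arrays, had 0.09 and 0.21. Atp5a1, the alpha subunit of the ATP synthase, was likewise at 0.32 as an average (limma adjusted p = 0.281), but of its 2 bright probe sets 1 was at -0.06 and 1 at 0.31, and the dim one was at 0.71. All 8 complex III genes lay below 0, between -0.28 and -0.02 with a median of -0.07 (median SE 0.12), and none passed. Over all genes 52.7% lay above 0. The 8 genes were measured on the same arrays, so they are not 8 separate observations. The medians of the other groups were -0.04 in complex I, -0.14 in the assembly factors, 0.03 in complex II, -0.01 in complex IV and 0.03 in complex V.

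**Figure D4:**
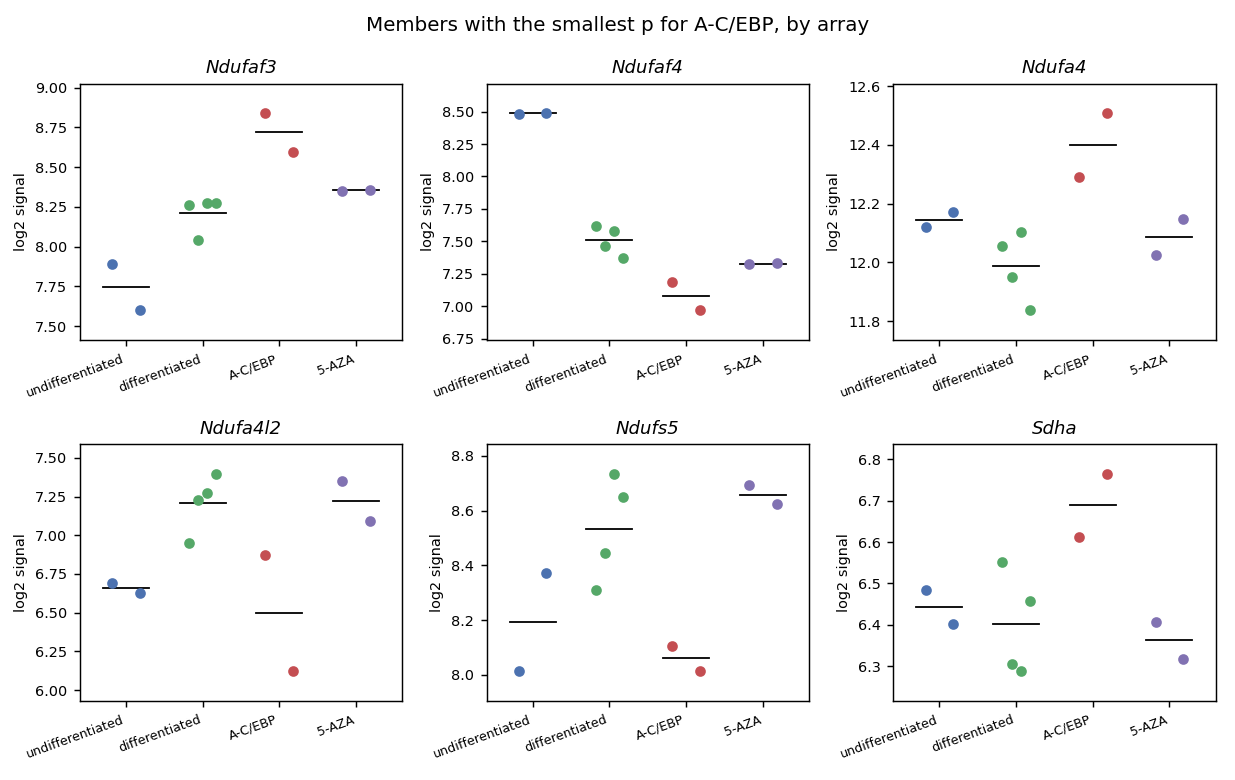
Log2 signal by array for the 6 members with the smallest p between A-C/EBP and differentiated cells. Points are arrays and bars are means, and each panel has its own axis that does not start at 0. Ndufaf3, Ndufa4 and Sdha lie above the differentiated arrays with A-C/EBP and Ndufaf4, Ndufa4l2 and Ndufs5 below them, but none passed the test.

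With 5-AZA no member passed either, where 0.17% of all genes rose and 0.115% fell, and 5 members had an unadjusted p under 0.05 (5.6%, against 9.1% of all genes). The median was 0.09, beside 0.04 over all genes, and 72 of the 90 members (80.0%) lay above 0, as did 60.5% of all genes. No member differed by more than 0.5 (1.89% of all genes were higher and 2.09% lower by that much). All 90 intervals lay within 1 in either direction, as did 95.7% of those of all genes. Both 5-AZA arrays were above all differentiated arrays in 8 members (11.2% of all genes) and below in 1 (5.15% of all genes). Cox7a2l, at 11.48 and 11.50 with 5-AZA, was 1 of the 8 (difference 0.34, SE 0.13, limma adjusted p = 0.432). The largest other differences were 0.36 for Ndufb1, with 7.52 and 8.23 on the 5-AZA arrays, and 0.33 for Atp5mpl, with 11.66 and 12.34. On the other side Ndufaf4 had -0.18, and the differences of Cox7a1 (-0.37) and Cox7c (-0.21) came from signals not shown to exceed background.

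The 5-AZA arrays were themselves unequal. Array 2 was above array 1 in 62 of the 90 members (68.9%), as it was in 49.9% of all genes and in 76.1% of the 46 ribosomal protein genes. On array 2 the signal of the 3' beta-actin control exceeded the 5' one by 0.68, where it did so by 0.09 to 0.37 on the other arrays. Without 5-AZA array 2 the members' median was 0.06 and without array 1 it was 0.14. Against differentiated arrays 3 and 4 alone the median was 0.03, and with the beta-actin value as a covariate it was 0.03 as well. The part of RNA quality in the shift was not tested further.

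A direct comparison of A-C/EBP with 5-AZA asked whether the treatments differed from each other. No member passed, where 2.06% of all genes rose and 1.13% fell, and 13 had an unadjusted p under 0.05 (14.4%, against 15.4% of all genes). The median was -0.11, beside -0.03 over all genes. Of the 90 members 65 lay below 0 and 25 above (27.8%, against 43.7% of all genes). Both A-C/EBP arrays were below both 5-AZA arrays in 40 members (25.2% of all genes) and above them in 7 (18.2% of all genes). No member was higher by more than 0.5 (5.34% of all genes) and 5 were lower (4.68% of all genes). The smallest p was that of Ndufs5, with a difference of -0.60 (SE 0.16, limma adjusted p = 0.089). The lowest differences were -0.73 for Ndufa4l2 and -0.72 for Ndufb1, and the highest were 0.36 for Ndufaf3, 0.33 for Sdha and 0.31 for Ndufa4. The intervals were within 0.5 for 49 members (54.4%, against 51.9% of all genes) and within 1 for 86 (95.6%, against 90.3%).

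Genes that surround the respiratory chain were counted by list in the comparison of differentiated with undifferentiated cells. Of 28 regulators of mitochondrial biogenesis and mitochondrial DNA, 1 rose and 6 fell, with a median of -0.22, where 6.64% of all genes rose and 9.13% fell. Ppargc1b, a coactivator that drives genes of oxidative metabolism, fell by 1.499 (SE 0.15, limma adjusted p = 0.00018), from 5.88 and 5.74 to 4.59, 4.06, 4.42 and 4.18. Its differentiated signals all lay below the array's median probe set, so they were not shown to exceed background and the size of the fall is uncertain. Its relative Pprc1 fell by 1.12 and Lrpprc, which stabilises mitochondrial messenger RNA, fell by 0.77. Of 37 genes of import, carriers and channels, 3 rose and 11 fell, with a median of -0.19. The ADP/ATP carrier Slc25a5 fell by 0.69, the import chaperone Timm9 fell by 0.74 and the prohibitin Phb2 fell by 0.51.

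Against the same shares of all genes, of 26 genes of the tricarboxylic acid cycle and pyruvate dehydrogenase none rose and 4 fell, among them Suclg2 by 0.96, Pdk3 by 0.57 and Idh3a by 0.47. Of 38 other assembly factors of the respiratory chain, 3 rose and 4 fell. The copper chaperone Sco2 of complex IV fell by 1.02 and Cox18 fell by 0.57, while Pet100, also of complex IV, rose by 0.98. Of 8 further parts of the chain, cytochrome c among them, Aifm1 alone changed and fell by 0.81. Of 9 genes of uncoupling and oxidant defence, the glutathione peroxidase Gpx4 rose by 0.84 and the thioredoxin Txn2 fell by 0.46. ND5 was the one gene of mitochondrial DNA measured, and it did not pass in any comparison, with signals of 10.7 to 12.6.

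With A-C/EBP the lists gave 2 calls against differentiated cells, both rises among the 26 genes of the tricarboxylic acid cycle and pyruvate dehydrogenase, where 1.49% of all genes rose. Mpc1, a subunit of the mitochondrial pyruvate carrier, was at 9.05 and 8.96 with A-C/EBP and at 8.18, 8.27, 8.50 and 8.29 without it (difference 0.70, SE 0.12, limma adjusted p = 0.0185). Pcx, pyruvate carboxylase, rose by 0.74 (limma adjusted p = 0.027). Against 5-AZA, Mpc1 was higher by 0.80 (limma adjusted p = 0.0139) and the peroxiredoxin Prdx3 by 0.93 (limma adjusted p = 0.0257). Prdx3 was at 9.12 and 9.36 with A-C/EBP, which overlapped the differentiated arrays (9.07, 9.26, 8.92 and 8.65). With 5-AZA it was at 8.37 and 8.25, below all of the differentiated arrays. No gene of these mitochondrial lists passed between 5-AZA and differentiated cells.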

How the data were processed

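RNA of 10 samples of mouse keratinocytes was hybridised to Affymetrix Mouse Genome arrays. The deposited values are log2 signals, which the authors computed by RMA with the Affymetrix Expression Console software (version not given in the sources used here), and no further normalization was applied. The annotation gives 1 gene symbol to 34958 of 45101 probe sets, several to 932 and none to 9211. Those with 1 symbol were averaged per gene, and 34754 were matched to RefSeq, which changed 0 symbols.

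Tests used limma 3.58.1 in R 4.3.3, in 1 fit of a mean per condition over all 10 arrays (6 residual degrees of freedom), with Benjamini-Hochberg adjustment over 18194 genes. The 4 differentiated arrays serve in 3 comparisons. The fit was tested on simulated data. Named members are, per comparison, up to 10 that passed with the smallest adjusted p, the 3 largest differences each way, complex II and the isoform groups, and from each other mitochondrial list up to 3 that passed with the smallest p. Others are named for a p near the threshold or a bright probe set after their values were seen. The members and lists were chosen with earlier results of these data known. The array number limits the precision. A-Fos and chromatin samples are not analysed here.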

Additional observations from a re-analysis of the deposited data

Results flagged for a closer look

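Among the 4 differentiated arrays, 32 named members and the 6 complex means were checked for an array far from the other 3, which chance alone flags in about 1 of 20 groups. Ndufaf3 was at 8.04 on differentiated array 2, where the others lay between 8.26 and 8.28, and the gap was 0.94 of the whole range. Atp5mpl was at 12.09 on differentiated array 3, where the others lay between 11.49 and 11.58, and the gap was 0.85 of the range. In differentiation Ndufaf3 passed without differentiated array 2 and did not pass without array 1, 3 or 4, or without undifferentiated array 2. Atp5mpl did not pass in any comparison.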

How the results depend on the processing

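The counts of members that rose and fell in differentiation were 7 and 2. The rises were 12 with each array centred on its median and 14 with quantile normalization (13.3% and 15.6%, where 7.9% and 8.6% of all genes rose), 3 with the replicate number as a block and 0 with differentiated arrays 1 and 2 only. The falls were 5 with the block, 4 with differentiated arrays 1 and 2 only, and 1 with the brightest probe set per gene, without probe sets that match several transcripts, or with differentiated arrays 3 and 4 only. Leaving out 1 differentiated array gave 2 to 9 rises and 2 to 4 falls, where 5.4% to 8.0% of all genes rose and 7.9% to 8.5% fell. With 1 undifferentiated array left there were fewer of both, as over all genes, and the share of rises dropped more among the members. With A-C/EBP, 1 member rose with quantile normalization, the block, or the hybridization control as a covariate, 1 fell with quantile normalization, and leaving out 1 array gave 0 to 1 falls. By more than 0.5 with no test, 1 was higher and 1 lower. With 5-AZA 1 member rose under the block, and the median was 0.026 against differentiated arrays 3 and 4 only. Between A-C/EBP and 5-AZA, 1 member fell with quantile normalization, 3 with the block, 0 to 1 when 1 array was left out, and 5 were lower by more than 0.5. The cause of these changes was not tested.

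Same-numbered arrays deviated together with r = 0.09 to 0.43, over only 2 shared numbers, so they are not shown to be pairs. The medians over members stayed within the spread between replicates (0.07) in all other settings. No member that passed changed direction, and of 197 values of the 9 under alternatives 53 no longer passed. Several alternatives share arrays or leave a difference unchanged, so the 197 values are not separate checks. The covariate for beta-actin was chosen after seeing the data.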
